A study of Drosophila melanogaster with 15 samples.

Results

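The vacuolar proton pump, or V-ATPase, is described here through the genes whose names in the deposited table begin with Vha, the fly prefix for its subunits. The rule took 16 genes with 40 transcripts, of 11257 genes and 18960 transcripts in the table. Each gene is given by its transcript with the highest mean level over all 15 libraries. The genes cover 13 kinds of subunit, with 9 genes for the soluble V1 sector and 7 for the membrane sector V0. All 16 averaged at least 10 RPKM (reads scaled to transcript length and library size), so none fell into the class of low isoforms, and all were above 0 in every library.

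The V-ATPase is a rotary motor. Its V1 head, built from A and B subunits, hydrolyses ATP and turns a central stalk, which drives a ring of proteolipid c subunits past the a subunit so that protons cross the membrane. In neurons the pump acidifies synaptic vesicles, and the proton gradient powers the transporters that load them with dopamine and other transmitters. Amphetamine (AMPH) is a weak base that is taken up by the dopamine transporter (DAT) and is known to reduce this gradient. On lysosomes the pump supports protein breakdown and takes part in amino acid sensing by TOR complex 1.

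The study asked which transcriptional responses to AMPH need DAT. Male flies that were 7 days old received 10 mM AMPH or vehicle (agar and sucrose food made with water) for 48 h, as the sample records give it. The *DAT* mutants carried *dDATfmn*, a roo transposon insertion in an intron of the transporter gene, in all of their cells, and had been back-crossed to the isogenic *w1118* strain that served as WT. Poly(A) RNA of single flies was sequenced on an Ion Torrent instrument in 3 libraries of *DAT* mutant AMPH and 4 each of *DAT* mutant vehicle, WT AMPH and WT vehicle. The *DAT* transcript itself was at 1.23 to 1.81 RPKM in *DAT* mutant AMPH and 2.15 to 2.37 in *DAT* mutant vehicle, and at 1.93 to 3.30 RPKM in WT AMPH and 2.18 to 3.02 in WT vehicle, in the libraries tested. It was not called between the strains on vehicle (log2 fold change -0.18, limma adjusted p = 0.557) or after AMPH (-0.41, adjusted p = 0.247), so its level does not check the genotype labels. The records name both the adult head as the source and the brain as the tissue. *ninaE*, the main opsin of the eye, was at 15700 to 30230 RPKM over the 15 libraries, so eye tissue was present, and the neuronal markers *elav*, *n-syb*, *brp*, *Syt1*, *Cha* and *VGlut* were all above 0.

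Depth, read from the step between low RPKM values if 1 step is 1 read, was between 19.5 and 43.6 M reads in *DAT* mutant AMPH with a median of 41.9 M, and between 11.1 and 47.0 M in *DAT* mutant vehicle with a median of 11.6 M. In WT AMPH it lay between 38.6 and 62.7 M (median 54.0 M), and in WT vehicle between 20.7 and 77.7 M (median 53.9 M). A value of a V-ATPase gene rested on a median of about 5923 reads over the 15 genes with a known length, and on about 113.6 at the least, for *VhaM9.7-1* in *DAT* mutant vehicle replicate 3. The tests used 13 libraries, without *DAT* mutant vehicle replicate 2 and WT vehicle replicate 1, because the group means in the study's supplementary table match these 13 and no other subset. *DAT* mutant vehicle replicate 2 stood apart, with a Spearman correlation of at most 0.858 with another library of its group across 17986 transcripts (transcripts are not independent replicates). Each of the other libraries reached at least 0.971 with some library of its own group.

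In that library the 15 genes of the rule with a known length divided by the length of their transcripts. The 5 genes with transcripts of up to 1064 nucleotides were at or above the mean of the other 3 *DAT* mutant vehicle libraries. *Vha14* was at 189.6 RPKM there, against 135, 111 and 117 in replicates 1, 3 and 4, a ratio of 1.56. The 10 genes of 1352 nucleotides or more were below that mean, as low as a ratio of 0.307 for *Vha100-2*, which had 11.8 RPKM against 43.6, 32.2 and 39.3. The median ratio over 17483 transcripts was 0.526. WT vehicle replicate 1 was closer to its group, at ratios of 0.863 to 1.38 to the mean of the other 3, above all 3 of them for 6 of the 16 genes and below all 3 for 4.

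**Figure D1:**
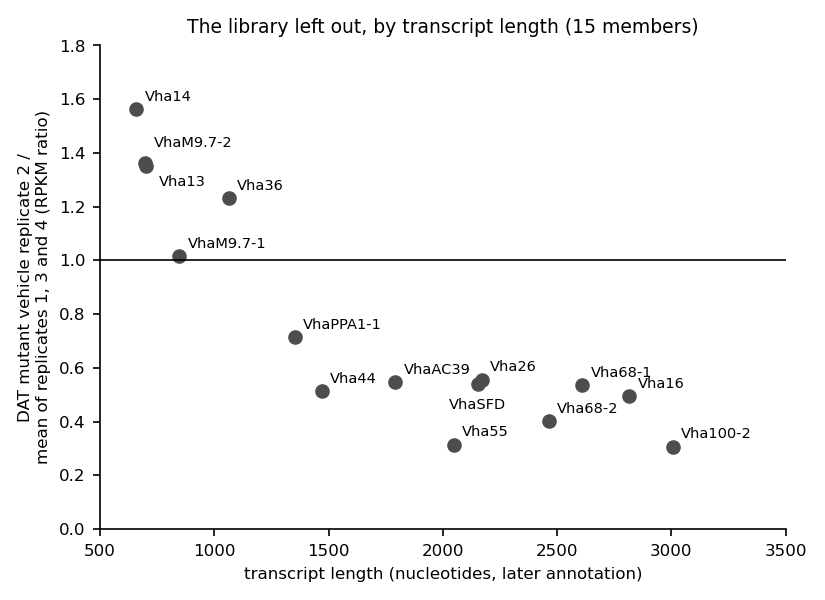
RPKM of each of 15 V-ATPase genes in *DAT* mutant vehicle replicate 2 divided by the mean of replicates 1, 3 and 4 (vertical axis, ratio), against transcript length in a later annotation (horizontal axis, nucleotides). The 5 genes of up to 1064 nucleotides lie at ratios of 1.02 or more, and the 10 of at least 1352 nucleotides at 0.307 to 0.715.

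Levels per length differed between the subunits. The c subunit, which forms the ring, was the highest, with *Vha16* at a mean of 377 ± 40.6 RPKM (SD over 13 libraries). *Vha13*, the single G subunit gene of the stator stalks, followed at 328 ± 47.3 RPKM, and *Vha55*, the B subunit of the head, at 226 ± 27.3 RPKM. The A subunit genes *Vha68-1* and *Vha68-2* added up to 209 ± 27.1 RPKM. The ranges of the B and A sums over the libraries overlapped, as did those of c and G. The a subunit genes summed to 154 ± 14.9 RPKM and the E subunit gene *Vha26* had 141 ± 13.5 RPKM, again with overlapping ranges.

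The remaining subunits lay close together. H, F, d, C, D and c'' each had 1 gene of the rule, with means between 94.4 RPKM for c'' and 113 RPKM for H. The e pair of the rule summed to 83.0 ± 7.49 RPKM. As background, A, B, E, G and c are present in several copies in an assembled pump and the others in 1 copy. Of the subunits in several copies, A, B, G and c had means above those of every subunit present in 1 copy, and E was above all of them but a. The grouping by copies was added after the levels were known and the order is a description.

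**Figure D2:**
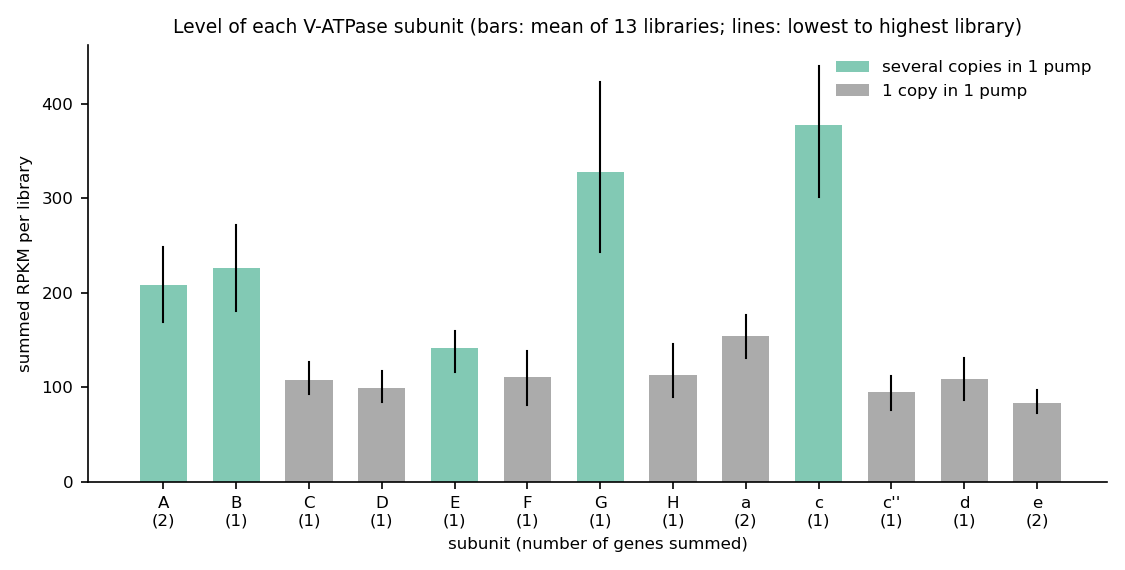
Summed RPKM of the genes for each V-ATPase subunit, with the number of genes in brackets; bars are means of 13 libraries and lines run from the lowest to the highest library. The c subunit has a mean of 377 RPKM and the e subunit of 83.0, and 4 of the 5 subunits present in several copies lie above all of those present in 1 copy.

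After AMPH the V-ATPase genes tended to be slightly lower than on vehicle, and few changed past the threshold. In the *DAT* mutant all 16 had a log2 fold change below 0, with a median of -0.20, and 1 gene fell, *VhaAC39*. In WT 13 of 16 were below 0, with a median of -0.23, and 3 fell, *Vha68-2*, *Vha14* and *VhaAC39*. No V-ATPase gene rose in either strain. Fold changes are differences of log2(RPKM + 1), and a gene fell or rose at a Benjamini-Hochberg adjusted p under 0.1 in limma over all transcripts tested. The strains were tested on separate libraries.

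These counts are read against the background. Among all transcripts tested, 22.1% differed between AMPH and vehicle in the *DAT* mutant and 15.4% were lower, and in WT 22.0% differed and 14.8% were lower. The 1 of 16 V-ATPase genes called in the *DAT* mutant is under both shares for that strain, and the 3 of 16 in WT, or 18.8%, lies between both shares for WT. These shares count transcripts, while each member is 1 transcript of its gene. In a fit with one transcript per gene, limma called 1 of 16 in each strain. Of all genes, 19.1% were called in the *DAT* mutant and 17.7% in WT in that fit. The median of all transcripts was -0.080 in the *DAT* mutant, with 62.4% below 0, and -0.066 in WT, with 59.9% below 0. At an unadjusted p under 0.05, 5 of 16 genes passed in each strain, against 30.9% of transcripts in the *DAT* mutant and 29.98% in WT. AMPH and vehicle libraries did not overlap, with AMPH lower, for 4 of 16 genes in the *DAT* mutant, where 24.8% of all transcripts did so, and for 7 of 16 in WT, against 19.7%.

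The calls were sensitive to the scaling of the libraries. With each library centred on its median, limma called 0 of the 16 V-ATPase genes of the rule in the *DAT* mutant, where 12 of 16 were below 0. In WT it called 1 (*Vha68-2*), where 10 of 16 were below 0. At an unadjusted p under 0.05, 2 of 16 passed in the *DAT* mutant, against 5318 of 17483 transcripts. In WT 1 of 16 passed, against 5110 of 17584. Of all transcripts, 22.4% were called in the *DAT* mutant and 20.1% in WT with this centring. Of those called in the *DAT* mutant, 50.6% were then higher after AMPH, against 30.4% without centring, and 50.9% of those called in WT, against 32.7%.

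**Figure D3:**
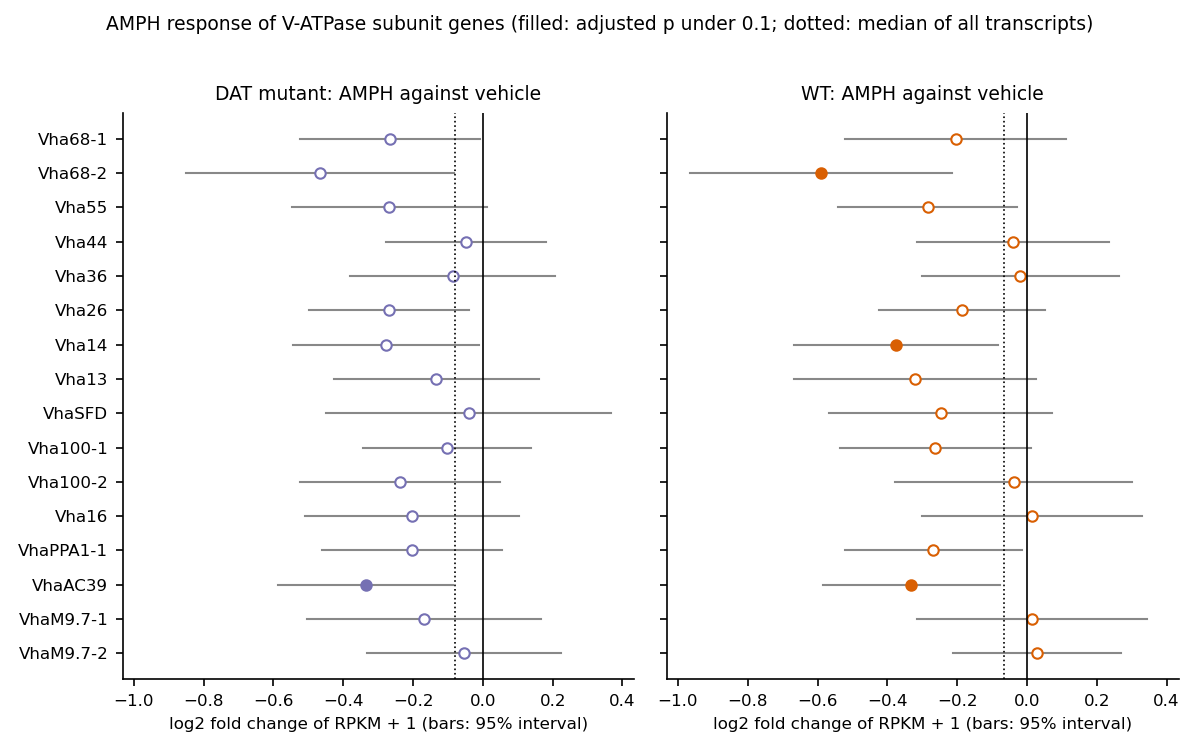
Log2 fold change of RPKM + 1 after AMPH against vehicle for the 16 V-ATPase genes in the *DAT* mutant (left) and WT (right), with 95% intervals from limma; filled points have an adjusted p under 0.1 and the dotted line is the median of all transcripts. The *DAT* mutant panel has 1 filled point, *VhaAC39*, and the WT panel 3.

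In bulk RNA, fewer cells of a type and less RNA per cell cannot be told apart, and several marker sums were lower after AMPH as well. The sum of the 6 neuronal markers was 617 to 771 RPKM in *DAT* mutant AMPH and 847 to 925 RPKM in *DAT* mutant vehicle, and 619 to 813 RPKM in WT AMPH and 759 to 822 RPKM in WT vehicle. The 3 muscle markers summed to 180.0 to 225 RPKM in *DAT* mutant AMPH against 261 to 309 RPKM in *DAT* mutant vehicle, and to 215 to 239 RPKM in WT AMPH against 381 to 538 RPKM in WT vehicle. The 3 glial markers summed to 68.7 to 86.9 RPKM in *DAT* mutant AMPH against 113 to 136 RPKM in *DAT* mutant vehicle, and to 68.3 to 124 RPKM in WT AMPH against 103 to 141 RPKM in WT vehicle. The 4 photoreceptor markers summed to 23640 to 24970 RPKM in *DAT* mutant AMPH and 28390 to 29660 RPKM in *DAT* mutant vehicle, with overlapping groups in WT. Single genes weighed most in some of these sums. The neuronal sum was set largely by *n-syb*, at a median of 420 RPKM, with *Syt1* next at 168 RPKM. In the glial sum *nrv2* had a median of 83.1 RPKM and *repo* 14.98 RPKM. The photoreceptor sum was dominated by *ninaE*, at a median of 21680 RPKM, with *trp* next at 916 RPKM. The part of the marker shifts in the V-ATPase values was not tested. The 4 fat body markers found were dominated by *to* and moved in opposite directions in the strains, with sums of 2317 to 3027 RPKM in *DAT* mutant AMPH against 1086 to 1692 RPKM in *DAT* mutant vehicle, and of 25.9 to 50.6 RPKM in WT AMPH against 163 to 207 RPKM in WT vehicle.

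Among the V1 genes, the catalytic A subunit, which binds and hydrolyses ATP, is made from a pair of genes. *Vha68-2* (chromosome 2L, 12974385 to 12978609 on dm3, plus strand) had 71.9, 52.1 and 55.2 RPKM in *DAT* mutant AMPH and 96.5, 66.4 and 86.4 in *DAT* mutant vehicle, and 51.9, 77.2, 65.1 and 52.1 RPKM in WT AMPH against 83.1, 106 and 88.2 in WT vehicle. Every WT AMPH library was below every WT vehicle library, while in the *DAT* mutant the highest AMPH library lay above the lowest vehicle library. It fell in WT with a log2 fold change of -0.59 (adjusted p = 0.0472, SE 0.16), from limma and Benjamini-Hochberg adjustment as in all values that follow. All 3 of its transcripts, which share reads, passed in WT. The call ended without WT vehicle replicate 3 (adjusted p = 0.159) or WT vehicle replicate 4 (adjusted p = 0.1145). In the *DAT* mutant the change was -0.47 (adjusted p = 0.103, SE 0.17), just outside the threshold.

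*Vha68-1*, the more abundant of the pair (2L, 13000765 to 13004142, minus strand), had 128, 139.6 and 114 RPKM in *DAT* mutant AMPH and 142, 154 and 162 in *DAT* mutant vehicle, and 141, 99.99, 119.8 and 133 RPKM in WT AMPH against 148, 129.5 and 147 in WT vehicle. The AMPH libraries lay below the vehicle libraries in the *DAT* mutant and overlapped them in WT, and neither change passed (-0.27 with adjusted p = 0.151 for the *DAT* mutant, -0.20 with adjusted p = 0.363 for WT). *Vha68-2* made up 31.9 ± 4.41% of the pair in *DAT* mutant AMPH (SD, n = 3), 35.1 ± 5.20% in *DAT* mutant vehicle (n = 3), 33.5 ± 7.65% in WT AMPH (n = 4) and 39.5 ± 4.80% in WT vehicle (n = 3). These shares overlapped between AMPH and vehicle in both strains, and between the strains after AMPH and on vehicle. How reads that map to both genes were counted is not given in the sources used here.

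*Vha55* encodes the B subunit, the partner of A in the head. Its levels were 231, 208 and 185 RPKM in *DAT* mutant AMPH and 252, 229 and 272 in *DAT* mutant vehicle, and 209, 218, 207 and 181 RPKM in WT AMPH against 245, 248 and 250.3 in WT vehicle. The WT groups were well apart, and still the change of -0.28 did not pass (adjusted p = 0.128), nor did that of -0.27 in the *DAT* mutant (adjusted p = 0.176).

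The central stalk, which carries the rotation to the ring, contains D and F. *Vha14*, the F subunit (2R, 11566931 to 11567585, minus strand), had 109.8, 96.96 and 92.6 RPKM in *DAT* mutant AMPH and 135, 111 and 117 in *DAT* mutant vehicle, and 112, 102, 81.6 and 101 RPKM in WT AMPH against 122, 125 and 138 in WT vehicle. Both AMPH groups lay below their vehicle groups. It fell in WT with a log2 fold change of -0.38 (adjusted p = 0.0883, SE 0.13), and the change in the *DAT* mutant was -0.28 (adjusted p = 0.147, SE 0.12). The WT call was lost when any 1 library other than WT AMPH replicate 1 was left out (adjusted p up to 0.248), and also with median centring (0.174) and quantile normalization (0.167).

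*Vha36*, the D subunit of the same stalk, passed in neither strain. It had 87.3, 114 and 98.1 RPKM in *DAT* mutant AMPH and 104, 96.3 and 117 in *DAT* mutant vehicle, and 111, 87.1, 102 and 84.4 RPKM in WT AMPH against 95.3, 93.01 and 102 in WT vehicle. The groups overlapped in both strains, with changes of -0.087 in the *DAT* mutant (adjusted p = 0.686) and of -0.019 in WT (adjusted p = 0.942).

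The stator stalks, which hold the head still, are made of E and G and are joined to V0 through C. *Vha26*, the E subunit, had 129.5, 133 and 116 RPKM in *DAT* mutant AMPH and 159, 147 and 149.9 in *DAT* mutant vehicle, and 147, 126, 126 and 140.1 RPKM in WT AMPH against 152, 154 and 153 in WT vehicle. All AMPH libraries were below the vehicle libraries of their strain, and neither change passed (-0.27 for the *DAT* mutant with adjusted p = 0.113, -0.19 for WT with adjusted p = 0.270).

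*Vha13*, the G subunit, was the most abundant V1 gene, at 351, 302 and 316 RPKM in *DAT* mutant AMPH and 409, 323 and 334 in *DAT* mutant vehicle, and 315, 307, 284 and 243 RPKM in WT AMPH against 332, 325 and 423 in WT vehicle. Its groups were apart in WT and overlapped in the *DAT* mutant, with changes of -0.13 in the *DAT* mutant (adjusted p = 0.523) and -0.32 in WT (adjusted p = 0.198).

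*Vha44*, the C subunit, had 109, 101 and 92.4 RPKM in *DAT* mutant AMPH and 107, 104 and 102 in *DAT* mutant vehicle, and 126, 100.1, 99.6 and 118 RPKM in WT AMPH against 116, 117 and 108 in WT vehicle. These overlapped in both strains, and the changes were small (-0.049 in the *DAT* mutant, adjusted p = 0.775, and -0.041 in WT, adjusted p = 0.858). *VhaSFD*, the regulatory H subunit, which in yeast inhibits ATP hydrolysis by free V1, had 146, 89.1 and 96.3 RPKM in *DAT* mutant AMPH and 119.9, 104 and 109 in *DAT* mutant vehicle, and 99.5, 97.6, 99.1 and 130.2 RPKM in WT AMPH against 116, 119.6 and 143 in WT vehicle. One library in each AMPH group was above the rest, and neither change passed (-0.040 for the *DAT* mutant with adjusted p = 0.899, -0.25 for WT with adjusted p = 0.275).

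Among the 16 genes, only *VhaAC39*, of V0, was called in both strains. It encodes the d subunit, which couples the central stalk to the ring (X, 3774773 to 3777004, plus strand). It had 112, 94.2 and 92.4 RPKM in *DAT* mutant AMPH and 131, 119 and 126 in *DAT* mutant vehicle, and 106, 88.2, 86.2 and 96.9 RPKM in WT AMPH against 113, 119 and 124 in WT vehicle. No AMPH library reached a vehicle library of its strain. Its log2 fold change was -0.34 (adjusted p = 0.0767, SE 0.11) for the *DAT* mutant and -0.33 (adjusted p = 0.0827, SE 0.11) for WT.

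Both calls on *VhaAC39* were fragile. In WT the call ended without any 1 library other than WT AMPH replicate 1 (adjusted p up to 0.222), and in the *DAT* mutant without any other than *DAT* mutant AMPH replicate 1 (up to 0.213). Median centring ended both, with adjusted p = 0.113 for the *DAT* mutant and 0.176 for WT, and quantile normalization gave 0.109 for the *DAT* mutant and 0.191 for WT. With all 15 libraries the *DAT* mutant change was -0.12 (adjusted p = 0.951), where *DAT* mutant vehicle replicate 2 had 68.5 RPKM.

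The a subunit carries the proton path next to the ring. *Vha100-1*, known in the fly as the isoform of synapses, had 131, 111 and 112 RPKM in *DAT* mutant AMPH and 127, 121 and 132 in *DAT* mutant vehicle, and 109.8, 97.98, 96.7 and 115.5 RPKM in WT AMPH against 113, 125 and 140.4 in WT vehicle. In both strains the groups overlapped, and neither change passed (-0.10 for the *DAT* mutant with adjusted p = 0.551, -0.26 for WT with adjusted p = 0.181). The 10 listed transcripts of *Vha100-1* differed little in their change, at -0.12 to -0.10 in the *DAT* mutant and -0.26 to -0.25 in WT.

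*Vha100-2*, the other a subunit gene among the members, was lower, at 34.6, 31.6 and 30.4 RPKM in *DAT* mutant AMPH and 43.6, 32.2 and 39.3 in *DAT* mutant vehicle, and 34.2, 42.4, 34.2 and 32.8 RPKM in WT AMPH against 30.8, 45.4 and 35.4 in WT vehicle. It made up 21.5 ± 0.598% of the pair in *DAT* mutant AMPH (SD, n = 3), 23.2 ± 2.29% in *DAT* mutant vehicle (n = 3), 25.6 ± 3.496% in WT AMPH (n = 4) and 22.7 ± 3.44% in WT vehicle (n = 3). *Vha100-1* was therefore the main a subunit transcript in every group, and the changes of *Vha100-2* were -0.24 in the *DAT* mutant (adjusted p = 0.240) and -0.038 in WT (adjusted p = 0.894).

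*Vha16*, the proteolipid c of the ring, had 301, 398 and 322 RPKM in *DAT* mutant AMPH and 356, 404 and 409 in *DAT* mutant vehicle, and 399.8, 368, 419 and 368 RPKM in WT AMPH against 439, 388 and 333 in WT vehicle. The most abundant V-ATPase gene thus overlapped between AMPH and vehicle in both strains, with changes of -0.20 in the *DAT* mutant (adjusted p = 0.345) and 0.013 in WT (adjusted p = 0.965). *VhaPPA1-1*, the c'' proteolipid of the same ring, had 102, 85.3 and 85.1 RPKM in *DAT* mutant AMPH and 106, 95.9 and 111 in *DAT* mutant vehicle, and 93.4, 86.4, 75.9 and 81.5 RPKM in WT AMPH against 97.6, 96.97 and 110.3 in WT vehicle. Its WT groups were apart, and the changes of -0.20 in the *DAT* mutant (adjusted p = 0.262) and -0.27 in WT (adjusted p = 0.144) did not pass.

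The e subunit is a small membrane protein of V0. *VhaM9.7-2*, the more abundant of the e pair among the 16 genes, had 69.6, 62.3 and 65.3 RPKM in *DAT* mutant AMPH and 80.2, 64.7 and 61.2 in *DAT* mutant vehicle, and 69.9, 72.5, 59.1 and 72.5 RPKM in WT AMPH against 66.1, 68.3 and 66.2 in WT vehicle. It was among the least changed, at -0.054 in the *DAT* mutant (adjusted p = 0.797) and 0.029 in WT (adjusted p = 0.885). *VhaM9.7-1* was the lowest of the 16, at 13.8, 10.3 and 13.4 RPKM in *DAT* mutant AMPH and 16.4, 11.9 and 14.2 in *DAT* mutant vehicle, and 15.9, 20.2, 14.98 and 18.05 RPKM in WT AMPH against 20.3, 16.96 and 14.2 in WT vehicle, with AMPH changes of -0.17 in the *DAT* mutant (adjusted p = 0.477) and of 0.014 in WT (adjusted p = 0.965). Its whole span of 799 bases lies within that of *CG18675* on the opposite strand, which averaged 15.1 RPKM. The whole span of *VhaSFD*, 4688 bases, lies within that of *CG31782* on the same strand, which averaged 6.98 RPKM. *Vha44* (548 bases), *Vha100-1* (11 bases) and *Vha100-2* (2160 bases) overlap the span of a gene on the opposite strand. Whether the counting used strand is not given in the sources used here.

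**Figure D4:**
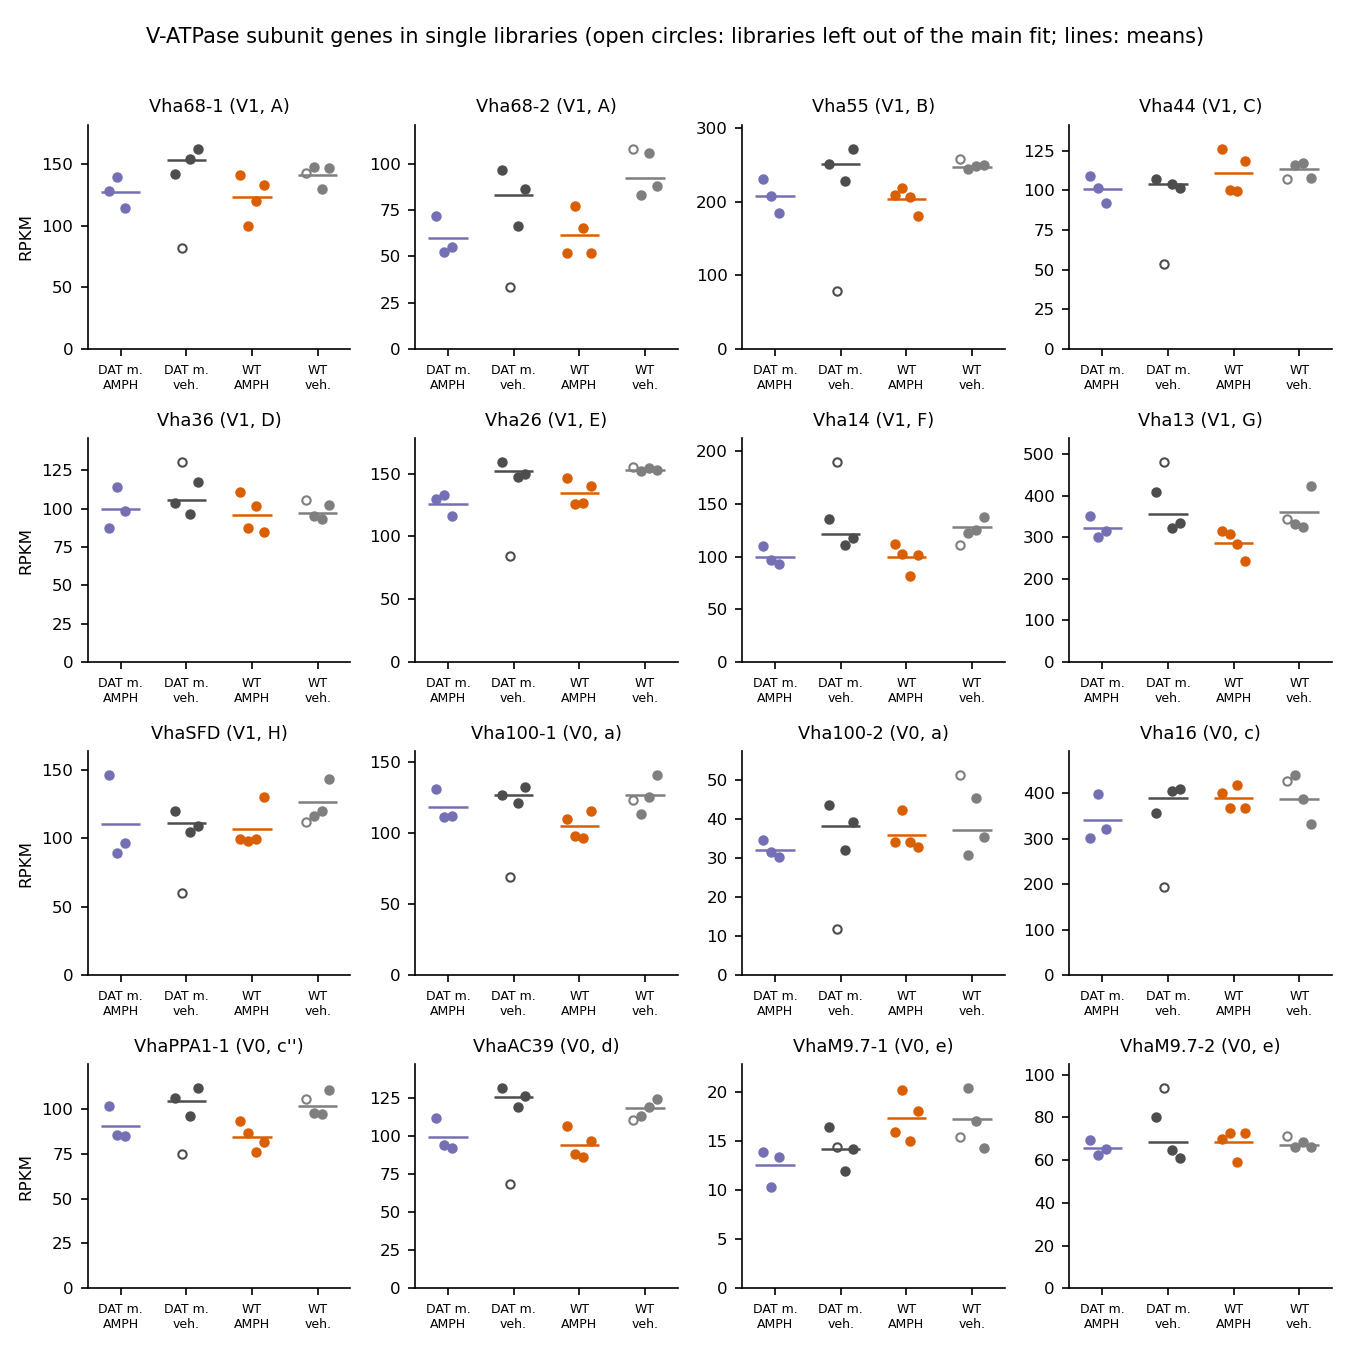
RPKM of the 16 V-ATPase genes in each of 15 libraries, 1 panel a gene with its sector and subunit; filled circles are the 13 libraries tested, open circles *DAT* mutant vehicle replicate 2 and WT vehicle replicate 1, and lines the means of the filled circles. The *VhaAC39* panel shows AMPH at 92.4 to 112 RPKM against 119 to 131 RPKM on vehicle in the *DAT* mutant, and at 86.2 to 106 RPKM against 113 to 124 RPKM in WT.

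Counted by transcript, 1 of the 40 listed transcripts passed in the *DAT* mutant, where 40 were below 0, and 5 passed in WT, where 34 were below 0. Transcripts of 1 gene had close values and are not separate evidence. With all 15 libraries, 0 of 16 genes passed in the *DAT* mutant, with 10 below 0 and a median of -0.072 while that of all transcripts was 0.12. In WT 5 passed, with 14 below 0 and a median of -0.21. At an unadjusted p under 0.05, 0 of 16 passed in the *DAT* mutant, against 1454 of 17555 transcripts. In WT 8 of 16 did so, against 6190 of 17464. Of all transcripts, 1.47% were called in the *DAT* mutant and 29.6% in WT with these libraries.

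None of the 16 V-ATPase genes of the rule was called between the strains. On vehicle, limma called 0 of 16, where 8.45% of all transcripts were called. At an unadjusted p under 0.05, 0 of 16 passed, against 19.3% of all transcripts. Changes of the *DAT* mutant relative to WT ran from -0.26 for *VhaM9.7-1* to 0.12 for *Vha36*, with a median of 0.0099. For *Vha55*, for example, *DAT* mutant vehicle had a mean of 251 ± 21.5 RPKM and WT vehicle 248 ± 2.71 RPKM (SD, n = 3 each), and the 95% interval of the log2 difference was -0.22 to 0.25. For *Vha100-1* that interval was -0.24 to 0.25. After AMPH, 0 of 16 were called, against 5.54% of all transcripts. At an unadjusted p under 0.05, 1 of 16 passed, against 17.4% of all transcripts. The 1 was *VhaM9.7-1*, with a mean of 12.5 ± 1.90 RPKM in *DAT* mutant AMPH (SD, n = 3) and 17.3 ± 2.32 RPKM in WT AMPH (SD, n = 4), groups that did not overlap, and a change of -0.44 (adjusted p = 0.142, SE 0.14).

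A dependence of the AMPH response on *DAT* was tested as the difference of the responses, *DAT* mutant minus WT, in one fit of the 4 groups. Limma called 0 of 16 genes, with an adjusted p of 0.999 for each, against 0.145% of all transcripts. At an unadjusted p under 0.05, 0 of 16 passed, against 5.21% of all transcripts. The differences ran from -0.22 for *Vha16* to 0.21 for *VhaSFD*. For *VhaAC39* the difference was -0.0043, with a 95% interval of -0.33 to 0.32. For *Vha68-2*, called in WT and not in the *DAT* mutant, the difference was 0.12 (interval -0.42 to 0.67), and for *Vha14* it was 0.10 (interval -0.28 to 0.47). A difference between the strains in the response of these genes was thus not detected, and the intervals for *Vha68-2* and *Vha14* include differences as large as their responses in WT.

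The table lists 7 further V-ATPase genes under CG numbers, which the name rule does not reach. They were matched by gene ID to a later annotation after the files had been seen, so that their choice followed the data. Those for accessory proteins were as abundant as the subunits. *VhaAC45* (*CG8029*), the fly Ac45, which assists V0, *VhaAC45RP* (*CG31030*), its relative, and *ATP6AP2* (*CG8444*), named for the mammalian accessory protein known as the prorenin receptor, averaged 122, 166 and 128 RPKM over the 15 libraries. None of these 3 passed in any of the 5 tests.

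*VhaM9.7-a* (*CG1268*), a further e subunit gene at 3L, 4262794 to 4263233, had 132, 120.1 and 120.4 RPKM in *DAT* mutant AMPH and 181, 155 and 169 in *DAT* mutant vehicle, with no overlap. It fell in the *DAT* mutant, with a log2 fold change of -0.44 (adjusted p = 0.0272, SE 0.10), and passed without any 1 of the 6 libraries (adjusted p up to 0.0981), though not with all 15 libraries (adjusted p = 0.444), where *DAT* mutant vehicle replicate 2 had 209 RPKM, nor with all 4 groups in one fit (0.267). In WT it had 103, 85.5, 64.6 and 141 RPKM after AMPH and 122, 112 and 191 on vehicle, a change of -0.53 (adjusted p = 0.234, SE 0.28). With this gene the e subunit would sum to 213 ± 38.1 RPKM, above the A and E sums and the other subunits present in 1 copy.

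*Vha36-3* (*CG8310*), a second D subunit gene on X, separated the strains after AMPH. It had 10.4, 11.6 and 11.2 RPKM in *DAT* mutant AMPH and 17.3, 16.99, 16.995 and 14.5 in WT AMPH, and was lower in the *DAT* mutant, with a log2 fold change of -0.53 (adjusted p = 0.0240, SE 0.10). The call ended without *DAT* mutant AMPH replicate 3 (adjusted p = 0.104). On vehicle it had 12.2, 9.04 and 8.61 RPKM in the *DAT* mutant and 10.5, 14.7 and 15.1 in WT, with overlapping groups and a change of -0.39 (adjusted p = 0.262, SE 0.17). The difference between the AMPH responses was -0.14 (adjusted p = 0.999).

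The other pair were low. *Vha100-4* (*CG7678*), a further a subunit gene, was at 3.34, 3.39 and 4.11 RPKM in *DAT* mutant vehicle against 0.0360, 0 and 0.347 in WT vehicle. It passed the filter of 1 RPKM in 3 libraries through *DAT* mutant vehicle alone, the group where it was high, so that its difference is given as a description with no test. That difference was 2.04 on the log2(RPKM + 1) scale and 4.34 with a pseudocount of 0.1, and since 1 WT vehicle library is listed at 0 neither value is a size of the change. It had 2.18, 3.07 and 0.881 RPKM in *DAT* mutant AMPH and 0.0270, 0.228, 0.493 and 0.0580 in WT AMPH, a comparison in which it did not pass the filter. The libraries left out went the other way, with 0.152 RPKM in *DAT* mutant vehicle replicate 2 and 1.47 in WT vehicle replicate 1, and with all 15 libraries the difference was 1.26. It lies on 3R from 14212555 to 14215525, on the same strand as *Vha100-2* (14216039 to 14224876) and next to it. *Vha16-5* (*CG6737*), a proteolipid gene, was between 0.700 and 2.02 RPKM in the 13 libraries and passed no test. In *DAT* mutant vehicle replicate 2 it had 0.0780 RPKM, a ratio of 0.0708 to the mean of replicates 1, 3 and 4. With 725 nucleotides it did not follow the split by length in that library, at a value near 0. *Vha100-4*, *VhaAC45*, *VhaAC45RP* and *ATP6AP2*, all of 1468 nucleotides or more, were below that mean too.

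**Figure D5:**
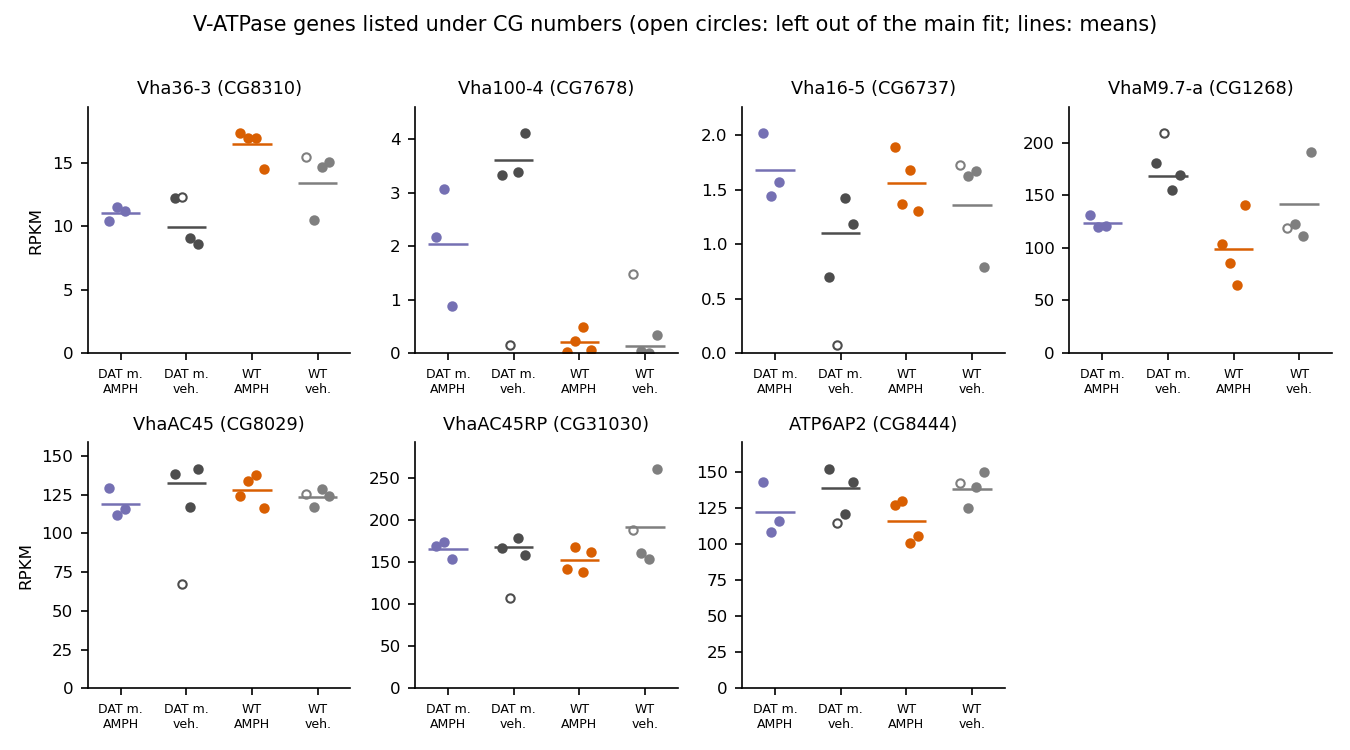
RPKM of the 7 V-ATPase genes listed under CG numbers in each of 15 libraries, drawn as filled circles for the 13 libraries tested, open circles for those left out and lines for means. *Vha100-4* stands at 0.881 to 4.11 RPKM in the *DAT* mutant libraries tested and at 0.493 RPKM or less in the WT libraries tested, and the open circles lie the other way round.

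The genes around the pump were read as counts, beside the shares of all transcripts, of which 6.71% were higher and 15.4% lower after AMPH in the *DAT* mutant, and 7.20% were higher and 14.8% lower in WT. Of the 3 assembly genes, which encode the RAVE-like factors *Rbcn-3A* and *Rbcn-3B* and their partner *rogdi*, 1 fell in the *DAT* mutant (*Rbcn-3B*, -0.39, SE 0.13, adjusted p = 0.0793) and 2 in WT (*Rbcn-3A*, -0.40, SE 0.098, adjusted p = 0.0308, and *Rbcn-3B*). None of the 3 rose. As background, these proteins bring V1 and V0 together.

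Vesicular transporters use the proton gradient that the pump makes. Of 5, the monoamine transporter *Vmat* was the one that fell, with changes of -0.55 in the *DAT* mutant (SE 0.16, adjusted p = 0.0507) and of -0.82 in WT (SE 0.098, adjusted p = 0.00237). Of 25 lysosomal and Mitf-related genes tested, 4 rose and 2 fell in the *DAT* mutant, while 2 rose and 5 fell in WT, so that the called share was near the 22.1% and 22.0% of all transcripts in these strains. Mitf is the fly transcription factor known to drive V-ATPase genes. The smallest adjusted p values were those of *CG5322*, a lysosomal mannosidase gene, at 1.21 (SE 0.18, adjusted p = 0.00428) in the *DAT* mutant and of *Ect3*, a galactosidase gene, at -1.05 (SE 0.19, adjusted p = 0.0111) in WT. The list had members called in both directions, with a median of -0.12 in the *DAT* mutant and -0.061 in WT, which median centring put at -0.027 in the *DAT* mutant and 0.016 in WT.

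Genes of the Rag and TOR pathway, which senses amino acids together with the pump on lysosomes, rose where they were called. The list was not split by whether a gene promotes or restrains the pathway, and pathway activity was not measured. Of 18, 5 rose and 0 fell in the *DAT* mutant (limma; median 0.18) and 8 rose and 0 fell in WT (median 0.34), where 6.71% of all transcripts rose in the *DAT* mutant and 7.20% in WT. *Thor*, the translation repressor that TOR controls, led both, at 1.57 (SE 0.29, adjusted p = 0.00964) in the *DAT* mutant and 2.35 (SE 0.24, adjusted p = 0.00103) in WT. The mitochondrial ATP synthase, a related rotary enzyme, had 7 of 13 tested genes lower in the *DAT* mutant (median -0.35) and 6 of 13 in WT (median -0.38), and none higher, beside 15.4% of all transcripts lower in the *DAT* mutant and 14.8% in WT. *CG1746*, its ring subunit, changed by -0.49 in the *DAT* mutant (SE 0.11, adjusted p = 0.0191), and *Oscp*, its stalk subunit, by -0.43 in WT (SE 0.11, adjusted p = 0.0401). With median centring the medians of these lists, other than that of the lysosomal list in WT, kept their sign. The lists are described by counts and medians only, and limma called 0 genes of these 5 lists in the difference between the AMPH responses.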

How the data were processed

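Per the methods and the labels, reads were mapped to dm3 with tmap in Torrent Suite 4.4.3. The authors deposited RPKM values, scaled to transcript length and library size, not counts. Single-library values were equal to the series table, and 0 pairs of libraries were identical. Nothing states separate cultures, so that p-values measure the spread between single flies of 1 experiment. The members and lists were chosen with earlier results of these data known.

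Limma 3.58.1 (R 4.3.3) with a mean-variance trend was run on log2(RPKM + 1). It took transcripts that reached 1 RPKM in a number of libraries equal to the smaller group. Adjustment was after Benjamini-Hochberg over all transcripts, with a threshold of 0.1. The fit was tried on simulated data with 200 transcripts changed by 1 on the log2 scale in each pairwise comparison. These changes were larger than that of any member, so the detection of changes of the members' size was not tested. The 13 libraries were those whose mean log2(rounded RPKM + 1) gives the group means of the supplementary table within 0.0001, an inference. Every member was named, with values by library. Of each other list, the gene with the smallest adjusted p per AMPH comparison was named. Symbols and lengths came from a later annotation (10188 gene IDs and 16255 transcripts matched), coordinates from the table. The alternatives tried were each library left out, all 15 libraries, no filter, a pseudocount of 0.1, median centring, quantile normalization, one transcript per gene, a replicate block, an adjusted p under 0.05 and all 4 groups in one fit; 14 libraries and centring of all 15 were added after seeing the data. Python 3.11.15, pandas 2.3.3, numpy 2.4.6 and matplotlib 3.10.9 were used.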

Additional observations from a re-analysis of the deposited data

Results flagged for a closer look

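In 69 groups of 4 libraries, 8 had a highest or lowest library whose gap to its neighbour took more of the group's range than Dixon's 95% limit allows, which chance passes in about 1 of 20 groups. In *DAT* mutant vehicle replicate 2, *Vha44* (53.5 RPKM) and *Vha26* (84.6 RPKM) were far below the other libraries. In WT AMPH, *VhaSFD* was high in replicate 4 (130.2 RPKM), *Vha100-2* was high in replicate 2 (42.4 RPKM) and *Vha36-3* was low in replicate 4 (14.5 RPKM). In WT vehicle, *Vha36-3* was low in replicate 2 (10.5 RPKM), *Vha16-5* was low in replicate 4 (0.789 RPKM) and *VhaM9.7-a* was high in replicate 4 (190.7 RPKM).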

How the results depend on the processing

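Of the 16 V-ATPase genes of the rule, the number called after AMPH was 1 in the *DAT* mutant and 3 in WT. In the *DAT* mutant it was 0 with an adjusted p under 0.05, all 15 libraries, median centring (13 or 15 libraries) and quantile normalization, 2 with all 4 groups in one fit, and 0 to 3 with 1 library left out (3 without *DAT* mutant AMPH replicate 1, 2 without *DAT* mutant vehicle replicate 3, otherwise 0). Of all transcripts, 14.6% were called there at an adjusted p under 0.05, 1.47% with all 15 libraries and 22.4% with quantile normalization. Median centring called 22.4% with 13 libraries and 2.80% with 15. The share was 20.6% with all 4 groups in one fit and 12.2% to 22.9% with 1 library left out. In WT it was 1 with an adjusted p under 0.05, median centring (13 or 15 libraries), quantile normalization and one transcript per gene, 5 with all 15 or with 14 libraries, 6 with all 4 groups in one fit, and 0 to 4 with 1 library left out (0 without WT vehicle replicate 3 or 4, 4 without WT AMPH replicate 1, otherwise 1). The counts of 0 for both strain comparisons and for the difference between responses were 0 under every alternative run. Over those alternatives, 0.429% to 11.2% of all transcripts were called between the strains on vehicle and 0.620% to 9.40% after AMPH. In the difference between responses the share was 0.00556% to 0.246%. None of the 6 changes called and named for a V-ATPase gene reversed under these alternatives. Over the changes of all 16 members, called or not, at most 6 had the other sign under an alternative in the *DAT* mutant (with all 15 libraries), 3 in WT, 9 between the strains on vehicle (with all 15 libraries), 4 after AMPH and 7 in the difference between responses. The cause of these shifts was not tested.

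Replicate numbers did not pair the libraries: deviations of same-numbered libraries correlated at 0.142 and -0.136 in the *DAT* mutant and at -0.12, 0.15 and 0.021 in WT. With a replicate block the counts were 0 for the *DAT* mutant and 3 for WT, beside 10.1% of all transcripts called in the *DAT* mutant and 20.9% in WT. In that fit *VhaM9.7-a* in the *DAT* mutant had an adjusted p = 0.148 and *Vha36-3* after AMPH 0.165 (limma). RPKM with 3 or 4 libraries a group limit the smallest change that could be called, and *DAT* mutant vehicle had the lowest median depth, at 11.6 M reads over its 4 libraries.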
